A study of Mus musculus with 12 samples.

Results

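The FoxO transcription factors Foxo1, Foxo3 and Foxo4, together with 7 genes that are induced in quiescent or starved cells (Klhl24, Pnrc1, Ccng2, Sesn1, Sesn3, Irs2 and Cited2), were followed in 4T1 tumours of restrained and untreated mice. The 10 genes were taken by symbol from the mRNA table, where all 10 were found among 22769 genes with a value other than 0, and all 10 passed the filter on low values that left 14098 genes. Klhl24 and Pnrc1 were selected on their differences between stress and control in these same libraries, and the other 8 were proposed with those results known. The differences of the 10 genes are therefore given as a description, and no test of them is offered as support.

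4T1 cells are an established mouse breast cancer line whose tumours spread to other organs on their own. The tumours grew in Balb/c mice and were taken 35 days post inoculation, either from mice restrained daily over 28 days, 2 hours each time (stress), or from untreated mice (control). There were 3 mRNA and 3 miRNA libraries of either group, and the labels do not say whether each came from its own mouse or whether the 2 kinds of library share tumours, so p-values measure only the spread between these libraries. The mRNA table holds values on a log2 scale, normalized by the authors before deposit, of unknown depth and with small differences drawn towards 0 at low expression, while the miRNA table holds read counts, from 1738056 to 3202224 per library. The epithelial markers of the tumour cells were present (all 7 tested, library means of 11.18 to 11.43 on the log2 scale).

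FoxO proteins sit at the end of insulin and growth factor signalling. When the kinase AKT is active it phosphorylates them and they are held in the cytoplasm; when growth factors or nutrients are scarce they enter the nucleus and switch on genes of cell cycle arrest, autophagy, stress resistance and cell death. Much of this control acts on the protein, so that a FoxO mRNA level is not a measure of FoxO activity. The sum of transcripts in a whole tumour also mixes cell types, and a lower value can mean fewer cells of a type or less RNA per cell, which cannot be told apart here.

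In the stressed tumours Pnrc1 stood 0.82 log2 units higher, Ccng2 0.56, Klhl24 0.49, Cited2 0.35 and Foxo3 0.34, and for each of these 5 genes all 3 stress libraries lay above all 3 control libraries. Irs2 was 0.18 higher, with overlapping groups, and Foxo1, Foxo4, Sesn1 and Sesn3 differed by 0.10 or less in either direction. Of the 10 genes 9 were higher and 1 was lower, with a median difference of 0.26, beside a median of 0.0014 over all 14098 genes, of which 7136 were higher. In the limma fit over all genes 2 of the 10, Pnrc1 and Klhl24, passed an adjusted p of 0.05 as higher, beside 0.0213% of all genes, and none as lower, beside 0.0142%. The remaining 8 had adjusted p-values from 0.120 to 0.851. All 3 stress values exceeded all 3 control values in 12.1% of all genes and lay below them in 12.3%. Since the 10 genes were chosen with this contrast known, nothing is read from these counts.

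**Figure D1:**
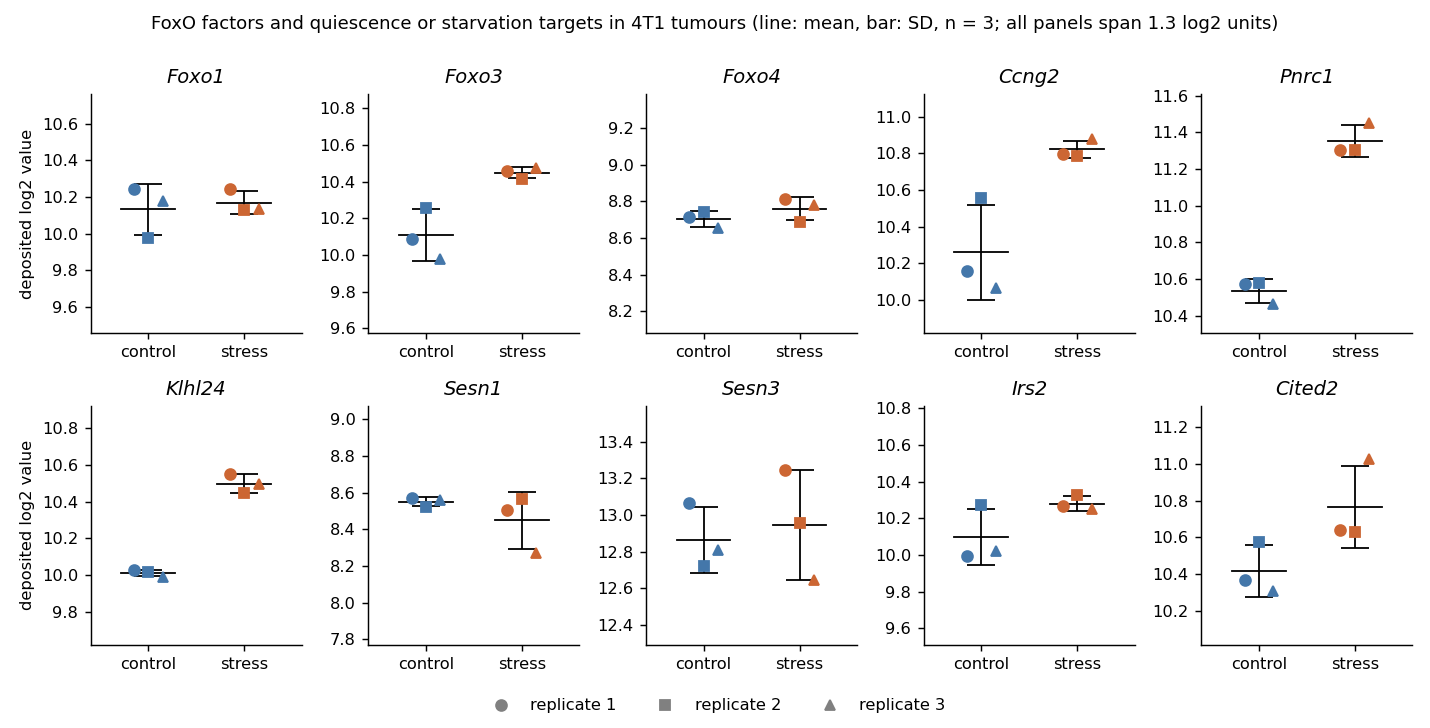
Deposited log2 value of each of the 10 genes in the 3 control (blue) and 3 stress (orange) libraries; the line is the group mean and the bar the SD (n = 3), and every panel spans the same number of log2 units. The groups separate for Foxo3, Ccng2, Pnrc1, Klhl24 and Cited2 and overlap for Foxo1, Foxo4, Sesn1, Sesn3 and Irs2.

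Among the factors themselves, Foxo3 was the member whose groups separated. In the order of the replicate numbers, kept for all genes here, its log2 values were 10.09, 10.26 and 9.98 in control and 10.46, 10.42 and 10.47 in stress. The stress libraries were close together (SD 0.030) and the controls more spread (SD 0.14), with a gap of 0.16 between the highest control and the lowest stress value. The difference was 0.34 ± 0.07 (SE), a 1.27-fold change on this scale, and it stayed between 0.28 and 0.41 under all 13 alternative settings. Foxo1, the factor best known from insulin-responsive tissues, read 10.24, 9.98 and 10.18 in control and 10.24, 10.13 and 10.14 in stress. Its groups overlapped, the difference was 0.04 ± 0.08, and its sign turned without control replicate 2 (-0.04) and without stress replicate 1 (-0.0010). Foxo4, encoded on the X chromosome, read 8.71, 8.74 and 8.65 in control and 8.81, 8.69 and 8.78 in stress, a difference of 0.06 ± 0.06 with overlapping groups, or 0.0312 without stress replicate 1, 0.0332 without control replicate 3 and 0.0937 without stress replicate 2. Foxo6, the remaining mouse FoxO gene and not among the 10, fell below the filter, with values from 1.02 to 1.06.

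Pnrc1 encodes a proline-rich nuclear receptor coactivator, and Klhl24 a substrate adaptor of a cullin ubiquitin ligase. Pnrc1 read 10.57, 10.58 and 10.46 in control and 11.30, 11.30 and 11.45 in stress, so that 0.72 log2 units separated the nearest libraries of the groups. The difference of 0.82 ± 0.06 (1.76-fold) was exceeded by 0.0993% of the genes tested. Klhl24 read 10.03, 10.02 and 9.99 in control and 10.55, 10.45 and 10.50 in stress, a difference of 0.49 ± 0.05 (1.40-fold), which 0.624% of the genes exceeded. Its 3 controls lay within 0.035 of each other, against a range of 0.105 in stress. The limma adjusted p-values, 0.0176 for Pnrc1 and 0.0497 for Klhl24, were known when these 2 genes were chosen. The Pnrc1 call ended without control replicate 1 (adjusted p = 0.0668), control replicate 3 (0.148), stress replicate 1 (0.0961) or stress replicate 3 (0.0515), and the Klhl24 call ended without any single library (0.0668 to 0.308). The differences themselves stayed between 0.77 and 0.84 for Pnrc1 and between 0.46 and 0.51 for Klhl24 when single libraries were left out.

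Ccng2 encodes cyclin G2, an unconventional cyclin that rises as cells leave the cycle and that is a widely used readout of FoxO activity. It read 10.16, 10.56 and 10.07 in control and 10.80, 10.79 and 10.88 in stress. Control replicate 2 lay closest to the stress group, 0.23 below its lowest library. The difference was 0.56 ± 0.12 (1.47-fold). Without control replicate 2 it was 0.71 and passed the limma threshold (adjusted p = 0.0440); with all libraries it did not (adjusted p = 0.120). Cited2, a transcriptional coregulator that binds the coactivator CBP and is induced by hypoxia as well as by FoxO factors, read 10.37, 10.57 and 10.30 in control and 10.64, 10.63 and 11.02 in stress. Only 0.057 separated its groups, and stress replicate 3 stood apart from the other 2 stress libraries. Its difference was 0.35 ± 0.12 (1.27-fold) with all libraries and 0.22 without stress replicate 3.

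The sestrins, which restrain the growth kinase mTORC1 when amino acids are short, had overlapping groups. Sesn1 read 8.57, 8.52 and 8.56 in control and 8.51, 8.57 and 8.27 in stress. Its groups overlapped, the low value was in stress replicate 3, and the difference was -0.10 ± 0.08, or -0.0148 without that library and -0.16 without stress replicate 2. Sesn3 read 13.07, 12.72 and 12.81 in control and 13.24, 12.95 and 12.64 in stress, with both the highest and the lowest of the 6 values in the stress group. Its difference of 0.08 ± 0.16 turned to -0.07 without stress replicate 1 and ran up to 0.23 without stress replicate 3. The third sestrin, Sesn2, which is not among the 10, differed by 0.0015 ± 0.08 (limma adjusted p = 0.995). Irs2, the insulin receptor substrate through which FoxO factors raise insulin sensitivity in fasting, read 9.99, 10.27 and 10.02 in control and 10.26, 10.33 and 10.25 in stress. Control replicate 2 lay among the stress libraries, and the difference was 0.18 ± 0.08 (1.14-fold).

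The 10 genes lie on 8 chromosomes, with Foxo3, Sesn1 and Cited2 on chromosome 10 of GRCm38. Foxo1 (chromosome 3, 52268336 to 52353221) and Irs2 (chromosome 8, 10984681 to 11008458) each overlap a transcript annotated on the other strand. Foxo1 and Sesn1 (chromosome 10, 41809935 to 41908424) each overlap a transcript on their own strand. The labels do not say whether the libraries kept the strand, so reads of the pairs on opposite strands may not be told apart. For the pairs on the same strand, keeping the strand would not separate the reads. Klhl24 (chromosome 16, 20097542 to 20129221, plus strand), Pnrc1 (chromosome 4, 33245423 to 33290163, minus strand), Foxo3 (chromosome 10, 42181841 to 42276755, minus strand) and Ccng2 (chromosome 5, 93267257 to 93276231, plus strand) overlap no other annotated gene.

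Promoters of 8 of the 10 genes, all but Foxo4 and Klhl24, were found in the RefSeq promoter set (GRCm38.p6). Each runs from 250 bases before to 50 bases after the start in that set, which can differ from the gene ends given above. The Pnrc1 window (chr4:33248738-33249037, minus strand) lies inside the gene as given above, and the Irs2 window lies outside it. They were searched on both strands for GTAAACA, the core of the FoxO binding element, and for CAAAACA, the core of the insulin response element. The letters GTAAACA occurred in 3.65% of all 32851 promoters of this length and CAAAACA in 6.28%. Windows around the 3 matches are shown 5′ to 3′ on the gene's strand because they show where these letters stand relative to the start, with the match in capitals. The Ccng2 window (chr5:93267532-93267588, plus strand) holds CAAAACA starting 16 bases before the start; the Irs2 window (chr8:11008935-11008991, minus strand) holds its reverse complement starting 37 bases before; and the Sesn1 window (chr10:41810571-41810623, plus strand) holds the reverse complement of GTAAACA starting 22 bases after.
Ccng2: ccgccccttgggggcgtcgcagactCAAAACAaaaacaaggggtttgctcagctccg
Irs2: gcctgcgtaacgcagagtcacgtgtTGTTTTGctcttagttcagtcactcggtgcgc
Sesn1: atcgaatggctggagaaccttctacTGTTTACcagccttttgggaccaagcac

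Ccng2 and Irs2, which hold CAAAACA, were 0.56 and 0.18 higher in stress, and Sesn1 was 0.10 lower (-0.10). Sesn1 has 2 promoters in the set, 1 with GTAAACA and 1 (chr10:41887189-41887488, plus strand) with neither motif. A relation between these motifs and the differences was not tested. Pnrc1, Foxo1, Foxo3, Sesn3 and Cited2 hold neither motif in this window. A match is a description of the letters only.

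Across the 6 libraries the genes did not vary as a single block. Over the 45 pairs of the 10 genes, Pearson's r of the log2 values ran from -0.89 to 0.99 with a median of 0.48, and r of the deviations from the group means ran from -0.91 to 0.97 with a median of 0.17. These are descriptions over 6 libraries that share the group difference, the normalization and the mix of cells. Foxo3 and Ccng2 followed each other over the 6 libraries (r = 0.99) and in their deviations from the group means (r = 0.97). Their spread within groups lay mostly in the controls, with SDs of 0.14 and 0.26 against 0.030 and 0.049 in stress. In both genes control replicate 2 was the highest control. Control replicate 2 was the highest Irs2 control as well, and Irs2 went with Ccng2 (r = 0.92 over the 6 libraries, 0.88 of the deviations). Pnrc1 and Klhl24 were close over the 6 libraries (r = 0.98) through the group difference they share, while r of their deviations was 0.19. Within the groups Pnrc1 went rather with Cited2 (r = 0.91 of the deviations) and Klhl24 with Foxo4 (0.91). Stress replicate 3 was the highest library of both Pnrc1 and Cited2. Foxo1 ran opposite to Ccng2 (-0.85 of the deviations) and to Irs2 (-0.91), and its lowest value was in control replicate 2.

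**Figure D2:**
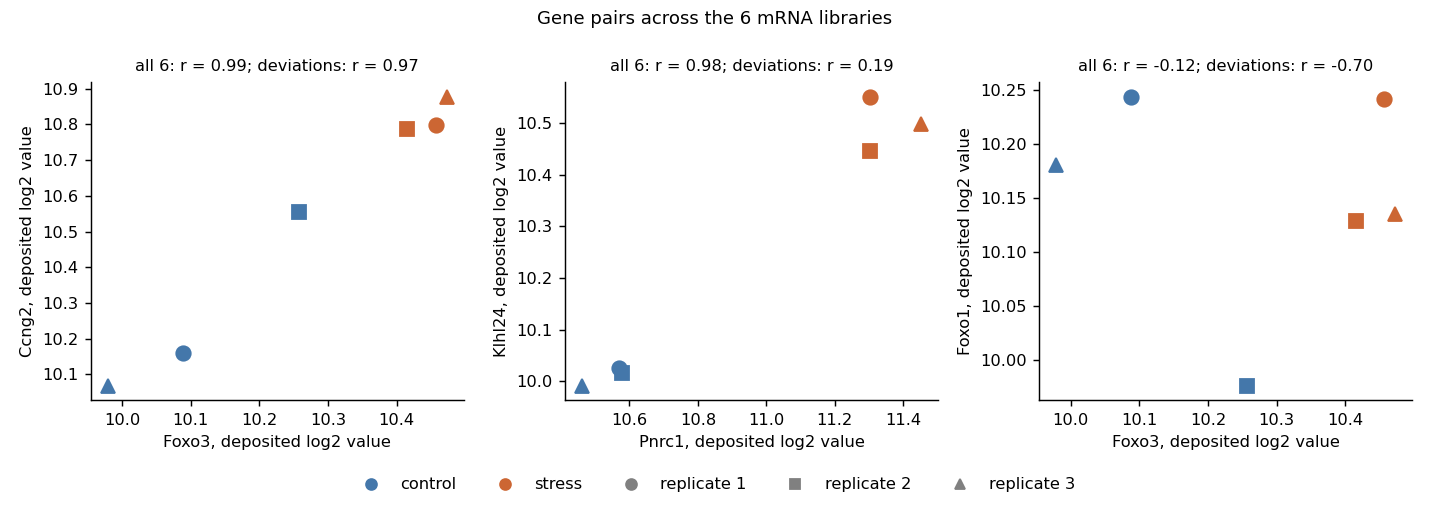
Log2 values of 3 pairs of genes in each mRNA library; colours mark the groups and symbols the replicate numbers, and r is Pearson's r over 6 libraries, for the values and for their deviations from the group means. Foxo3 and Ccng2 lie near a line over the 6 libraries, with the stress libraries close together. Pnrc1 and Klhl24 fall into separate clouds for control and stress, and Foxo1 does not follow Foxo3.

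Of all genes tested, those with the highest r to Pnrc1 over the 6 libraries were Arid5b (r = 0.997, 0.42 higher in stress), Arhgap12 (0.995, 0.24 higher), Srp72 (0.994, 0.04 higher), Add1 (0.994, 0.12 higher) and Saraf (0.993, 0.24 higher). Those most like Klhl24 were Bbs2 (r = 0.998, 0.34 higher), AC157554.1 (0.998, 0.36 higher), the circadian repressor Nr1d2 (0.993, 0.24 higher), Neo1 (0.993, 0.21 higher) and Naglu (0.993, 0.25 higher). None of these 10 genes passed the limma threshold (adjusted p = 0.0618 to 0.600). Klhl24 ranked 18th by likeness to Pnrc1, Foxo3 250th and Ccng2 387th, while Foxo1 ranked 6203rd.

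Other genes described as induced by FoxO factors were taken from lists written with results of these data known, so the counts in this and the other lists are descriptions. Over all 14098 genes, 1165 were higher and 1290 lower at an unadjusted p under 0.05 in limma. The arrest and cell death list leaned upwards: 13 of 16 were higher and 3 lower, with a median of 0.25. In 10 of them (62.5%) all stress libraries lay above all controls, beside 12.1% of all genes. None passed the limma threshold over all genes, although 9 higher and 1 lower had an unadjusted p under 0.05. Bcl2l11, which encodes the death activator BIM, read 10.50, 10.29 and 10.26 in control and 10.94, 10.89 and 11.19 in stress, a difference of 0.65 ± 0.10 (limma adjusted p = 0.0769). Bcl6, a repressor that is also induced by glucocorticoids, read 9.58, 9.59 and 9.72 in control and 10.18, 10.03 and 10.22 in stress, 0.52 ± 0.07 higher (adjusted p = 0.0769). In both genes the gap between the groups was wider than the range within either. Cdkn1b, a CDK inhibitor and a classic FoxO target in arrest, was 0.20 ± 0.05 higher (adjusted p = 0.120), with control values of 11.15 to 11.20 and stress values of 11.35 to 11.42. Members of the list that hypoxia also induces, Bnip3 (0.70 higher, adjusted p = 0.186), Bnip3l (0.42, 0.158) and Mxi1 (0.43, 0.154), were among those with separated groups. The textbook arrest gene Cdkn1a differed by 0.09 ± 0.14 (adjusted p = 0.787), and Ccng1, the paralog of Ccng2, was lower (-0.18 ± 0.07, adjusted p = 0.259). Bnip3, Bnip3l, Mxi1 and Cdkn1a were named after their values were seen.

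The autophagy, metabolism and oxidative stress list was mixed. Of its 16 tested genes 12 were higher and 4 lower, with a median of 0.08. In 4 (25%) all stress libraries lay above all controls, beside 12.1% of all genes. None passed (3 higher and 2 lower at an unadjusted p under 0.05). Atg14, a subunit of the autophagy lipid kinase, read 8.08, 8.04 and 8.05 in control and 8.32, 8.40 and 8.38 in stress, 0.31 ± 0.06 higher (limma adjusted p = 0.102), and the autophagosome protein gene Map1lc3b was 0.21 ± 0.05 higher (adjusted p = 0.154). Txnip, an inhibitor of glucose uptake, was lower (-0.35 ± 0.14, adjusted p = 0.255). Pdk4 (-0.72, adjusted p = 0.267) and Trim63 (-0.28, adjusted p = 0.387), named after their values were seen, are FoxO targets of muscle. Fbxo32, a further muscle target in the list and also named afterwards, was 0.08 higher (adjusted p = 0.676). The muscle markers were lower in the same libraries, and a link to these genes was not tested. The antioxidant genes Sod2 (0.06) and Cat (0.08), also named afterwards, had overlapping groups. Pck1, Igfbp1 and Klf15 fell below the filter and G6pc was listed at 0.

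FoxO-dependent genes of lymphocytes and endothelium went both ways (4 higher and 3 lower of 7, median 0.01), and none passed (0 higher and 2 lower at an unadjusted p under 0.05). The endothelial nitric oxide synthase gene Nos3 was lower (-0.30 ± 0.08, limma adjusted p = 0.147), and so was the sphingosine receptor gene S1pr1 (-0.26 ± 0.09, adjusted p = 0.220). Genes described as repressed by FoxO factors were mostly lower: 6 of 8 were lower and 2 higher, with a median of -0.21. In 5 of them (62.5%) all stress libraries lay below all controls, beside 12.3% of all genes. The mitotic kinase gene Plk1 read 10.64, 10.73 and 10.69 in control and 10.24, 10.35 and 10.13 in stress, a difference of -0.45 ± 0.07 (adjusted p = 0.0769). Ccnb1 was at -0.28 ± 0.07 (adjusted p = 0.137) and the mitotic transcription factor gene Foxm1 at -0.32 ± 0.09 (adjusted p = 0.158). None of the 8 passed, with 0 higher and 5 lower at an unadjusted p under 0.05. Myc, also in that list and named after its value was seen, differed by -0.0053, with overlapping groups.

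**Figure D3:**
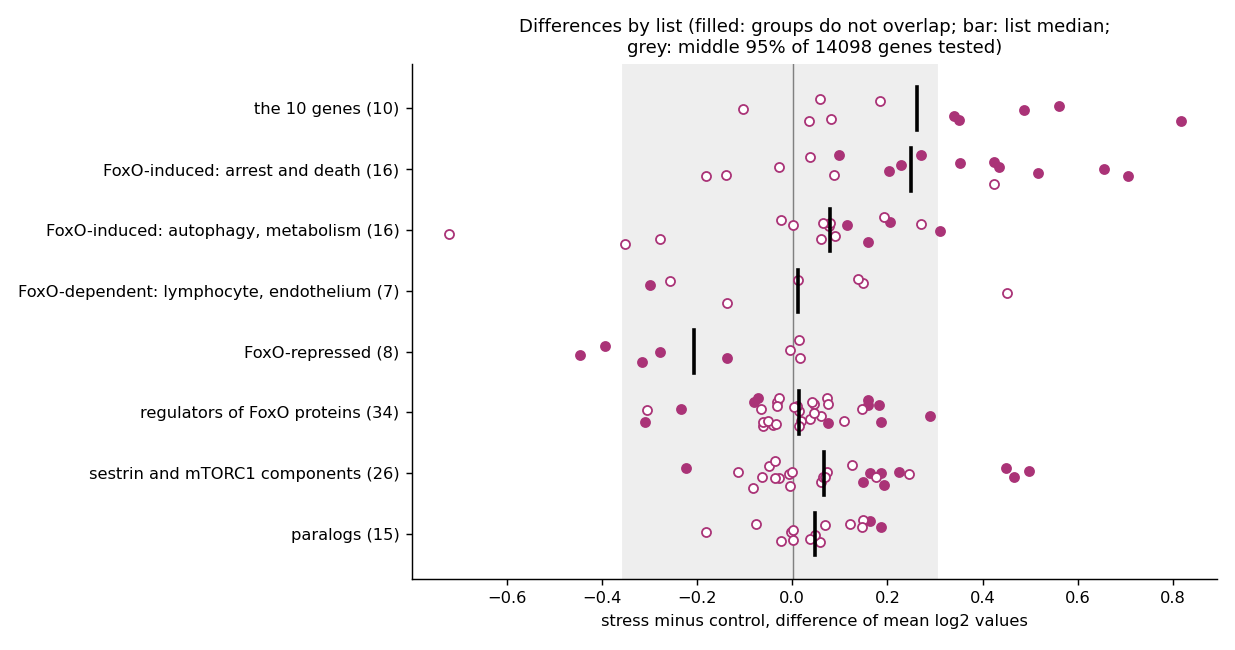
Difference of mean log2 values, stress minus control, for each tested gene of the lists (number of genes in brackets); filled points are genes whose groups do not overlap, black bars are list medians and the grey band holds the middle 95% of all 14098 genes, from -0.35 to 0.30. The arrest and death list has a median of 0.25 and the FoxO-repressed list one of -0.21, while the regulators of FoxO proteins centre at 0.01.

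Regulators of FoxO proteins as a list stood near the median of all genes. Of 34 tested genes 20 were higher and 14 lower, with a median of 0.01. In 6 (17.6%) all stress libraries lay above all controls and in 4 (11.8%) below, beside 12.1% and 12.3% of all genes. None passed (4 higher and 3 lower at an unadjusted p under 0.05). The smallest p belonged to Crebbp, the acetyltransferase CBP that coactivates and acetylates FoxO proteins, at 10.54, 10.65 and 10.58 in control and 10.81, 10.87 and 10.95 in stress (0.29 ± 0.06 higher, limma adjusted p = 0.110). Skp2, a ubiquitin ligase subunit that targets FoxO1 for degradation and peaks in cycling cells, was lower (-0.23 ± 0.05, adjusted p = 0.129), and the receptor gene Igf1r was 0.19 ± 0.05 higher (adjusted p = 0.153). Akt1, Akt2 and Sgk1 were named after their values were seen. Akt1 differed by -0.07 and Akt2 by 0.07, and Sgk1, a kinase of FoxO proteins that glucocorticoids induce, by 0.05 (adjusted p = 0.817).

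A list of mTORC1 subunits, proteins that relay amino acid supply to them, and some of their inhibitors and targets had 26 tested genes. Of these 15 were higher and 11 lower, with a median of 0.07. In 8 (30.8%) all stress libraries lay above all controls and in 1 (3.85%) below, beside 12.1% and 12.3% of all genes. None passed (8 higher and 1 lower at an unadjusted p under 0.05). Folliculin and its partner relay amino acid supply to mTORC1. Fnip1 read 10.42, 10.61 and 10.43 in control and 10.96, 10.89 and 11.01 in stress, 0.47 ± 0.07 higher (limma adjusted p = 0.0769), and Flcn, which encodes folliculin, was 0.50 ± 0.11 higher (adjusted p = 0.120). Ddit4, an mTORC1 inhibitor induced by hypoxia and glucocorticoids, was 0.45 ± 0.10 higher (adjusted p = 0.120).

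Paralogs of the 10 genes differed by less than 0.20 in either direction. Of 15 tested, 11 were higher and 4 lower, with a median of 0.05, and none passed (1 higher and 1 lower at an unadjusted p under 0.05, limma adjusted p = 0.191 at the lowest). Pnrc2 differed by 0.06 ± 0.05 and Irs1 by 0.15 ± 0.10, while Ccni, a cyclin related to Ccng2, was 0.16 ± 0.05 higher. The 10 tested KLHL genes ran from -0.08 in Klhl20 to 0.19 in Klhl21, with Klhl2 at 0.15, Klhl12 at 0.12, Klhl9 at 0.07, Klhl7 at 0.05, Klhl26 at 0.04, Klhl25 at 0.0015, Klhl3 at -0.0017 (0.0455 after quantile normalization) and Klhl5 at -0.02 between them.

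Markers of other cells moved in the same libraries. Of 9 tested neutrophil markers 7 were higher and 2 lower. Their library means ran from 8.29 to 8.59 in control and from 8.47 to 9.27 in stress, and Ly6g fell below the filter. All 8 endothelial markers were lower, with means of 8.62 to 8.87 in control and 8.29 to 8.47 in stress, and 8 of 9 fibroblast markers were lower (11.93 to 12.71 against 11.73 to 12.01). All 10 skeletal muscle markers were lower, with means of 8.67, 9.75 and 10.01 in control and 8.85, 9.06 and 7.69 in stress. The lowest muscle mean was in stress replicate 3, the library with the highest Cited2 and the lowest Sesn1 value. The 3 tested adipocyte markers were lower (6.85 to 7.80 against 6.47 to 6.87). Of 10 T and NK cell markers 1 was higher and 9 lower (6.49 to 6.97 against 6.55 to 6.95). Of 8 macrophage markers 3 were higher and 5 lower (11.30 to 11.42 against 11.16 to 11.56). Of 7 epithelial markers 4 were higher and 3 lower (11.26 to 11.40 against 11.18 to 11.43). The library means of the 2 groups overlapped in every marker list but the endothelial one. Of 5 B cell markers Cd22 alone was tested. No marker was listed at 0. With the muscle mean as a covariate Pnrc1 was 0.73 higher, Ccng2 0.55, Klhl24 0.47 and Foxo3 0.32, while Cited2 came to 0.21, and neither Pnrc1 (adjusted p = 0.241) nor Klhl24 (0.427) was called. The part of the other cell types in these differences was not tested.

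The miRNA libraries give a readout that the choice of genes did not use. The list of miRNAs was, like the other lists, written with earlier results of these data known, so its counts are a description. A list of 21 miRNAs described as targeting FoxO transcripts was tested with edgeR among 462 miRNAs, and all 21 passed the count filter. None of the 21, and none of the 462 (0% higher and 0% lower), passed an adjusted p of 0.05, while 9 of the 21 and 110 of the 462 had an unadjusted p under 0.05. Of the list 13 were higher in stress and 8 lower, with a median log2 ratio of 0.06 beside 0.02 over all miRNAs. All 3 stress libraries lay above all 3 controls for 6 of the 21, beside 12.1% of all miRNAs, and below for 2, beside 14.3%. With DESeq2 11 miRNAs were called higher and 33 lower, and of the 20 list members with an adjusted p 3 were higher and 1 lower. With edgeR 6 list members were called (4 higher, 2 lower) on all miRNAs with at least 1 read, and 5 (4 higher, 1 lower) without control replicate 1.

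The mature sequences of the 6 miRNAs that were higher in all stress libraries, and of miR-182-5p and miR-96-5p from the miR-183 cluster, are shown 5′ to 3′ from RefSeq (GRCm38.p6), since the seed, bases 2 to 8 in capitals, decides which transcripts can pair. RefSeq sequences matched 18 of the 21 names, with 15 different seeds.
miR-27a-3p: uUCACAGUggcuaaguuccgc
miR-27b-3p: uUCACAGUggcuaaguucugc
miR-25-3p: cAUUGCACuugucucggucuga
miR-9-5p: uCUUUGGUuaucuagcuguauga
miR-183-5p: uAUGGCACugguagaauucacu
miR-221-3p: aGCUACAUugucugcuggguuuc
miR-182-5p: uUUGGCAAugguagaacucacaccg
miR-96-5p: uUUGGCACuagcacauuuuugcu

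miR-27a-3p and miR-27b-3p share their whole seed, and they were higher together. miR-27a-3p stood at 3845, 3804 and 3215 CPM (reads scaled to a common library size by edgeR) in control and 4811, 5619 and 6572 in stress, a log2 ratio of 0.65 ± 0.15 (SE from the spread of log2 CPM; edgeR adjusted p = 0.138, DESeq2 adjusted p = 0.0147). miR-27b-3p, from another locus, stood at 20226, 18757 and 17561 CPM in control and 23641, 26790 and 26615 in stress, a log2 ratio of 0.45 ± 0.08 (edgeR adjusted p = 0.138, DESeq2 adjusted p = 0.0165). miR-25-3p stood at 3988, 3322 and 3611 CPM in control and 5350, 4929 and 5339 in stress, a log2 ratio of 0.52 ± 0.09 (edgeR adjusted p = 0.138, DESeq2 adjusted p = 0.00793). In each of the 3 the lowest stress library lay above the highest control, and the 3 were called by DESeq2, by edgeR without control replicate 1 and by edgeR on all miRNAs with at least 1 read, but not by edgeR with all libraries and the count filter. miR-9-5p (log2 ratio 0.42), miR-221-3p (0.43) and miR-183-5p (0.41) also had all stress values above all controls, with edgeR adjusted p-values of 0.165, 0.187 and 0.204.

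Within the miR-183 cluster, whose 3 miRNAs are transcribed together, the ratios differed: miR-182-5p was at 10100, 8185 and 8750 CPM in control and 10885, 9527 and 13317 in stress (log2 ratio 0.32, edgeR adjusted p = 0.263), and miR-96-5p at 1670, 1326 and 1255 against 1186, 1426 and 1683 (0.01, adjusted p = 0.977). The test of a difference between them was not run. On the lower side, miR-145a-5p, an miRNA abundant in smooth muscle cells, stood at 213, 465 and 390 CPM in control and 128, 152 and 116 CPM in stress, a log2 ratio of -1.43 ± 0.36 (edgeR adjusted p = 0.138, DESeq2 adjusted p = 0.00435). miR-499-5p, a muscle miRNA, had 23, 39 and 58 reads in control and 26, 6 and 1 in stress (log2 ratio -1.61, edgeR adjusted p = 0.203). Its groups overlapped in reads and separated narrowly in CPM, with 9.82 in stress replicate 1 below 10.5 in control replicate 1. The muscle markers above were lower too. miR-223-3p, abundant in neutrophils, was at 291, 324 and 400 CPM against 645, 371 and 635 (log2 ratio 0.70, edgeR adjusted p = 0.178). Of the 9 tested neutrophil markers 7 were higher and 2 lower. A link of miR-499-5p or miR-223-3p to the markers was not tested.

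The other 10 tested miRNAs of the list had overlapping groups. Their log2 ratios were 0.40 for miR-222-3p, 0.48 for miR-135b-5p with at most 21 reads in a library, 0.06 for miR-34a-5p, 0.02 for miR-21a-5p, -0.03 for miR-132-3p and for miR-139-5p, -0.08 for miR-30d-5p, -0.09 for miR-212-3p, -0.13 for miR-155-5p and -0.57 for miR-29b-3p.

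**Figure D4:**
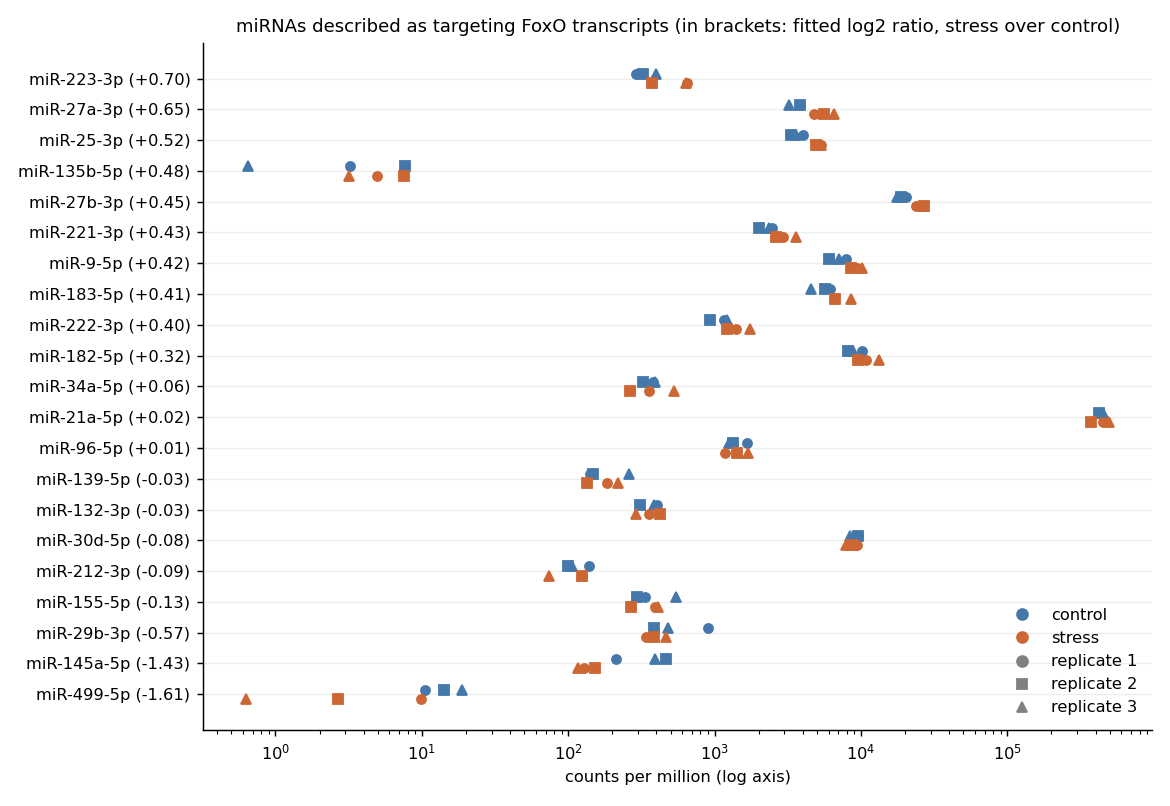
Normalized CPM (log axis) of the 21 miRNAs in the 3 control (blue) and 3 stress (orange) miRNA libraries, symbols marking the replicate number, ordered by the fitted log2 ratio of stress over control in brackets. The orange points lie to the right of all blue points for 6 miRNAs, among them miR-27a-3p, miR-27b-3p and miR-25-3p, and to the left for miR-145a-5p and miR-499-5p.

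Matches to the 15 seeds (the 7 letters that pair with bases 2 to 8) were sought in the longest annotated 3' UTR of each of the 10 genes in GENCODE M21. Foxo3 held 12 matches to 9 seeds in 4490 bases, Sesn3 10 matches to 6 seeds in 7395 bases and Foxo1 8 matches to 7 seeds in 6240 bases. Pnrc1 held 2 matches in 641 bases, Klhl24 2 in 6115 bases and Ccng2 4 in 1234 bases. The miRNAs were listed because they are described as targeting FoxO transcripts, so matches in the FoxO genes follow in part from that choice. How many matches a 3' UTR of a given length would hold was not computed, and the genes are not ranked. The sites below are shown because they belong to miR-27 and miR-182, the first a pair higher in all stress libraries and the second the best-known FoxO regulator of the list. The miR-27 match ACTGTGA, present in 19.6% of 13370 genes with a 3' UTR, lies in Foxo1 (chr3:52347396-52347402, plus strand), Foxo3 (chr10:42183272-42183278, minus strand) and Pnrc1 (chr4:33245683-33245689, minus strand). The miR-182 match TTGCCAA, present in 13.9% of the genes, lies in Foxo1 (chr3:52350882-52350888), at 2 places in Foxo3 (chr10:42186252-42186258 and chr10:42185433-42185439) and in Cited2 (chr10:17725625-17725631). Each line gives the gene's strand 5′ to 3′ with the match in capitals.
Foxo1, miR-27: tactcttttgtaatACTGTGAt
Foxo3, miR-27: agcatacccggttaACTGTGAc
Pnrc1, miR-27: aaagtgaagatgtaACTGTGAa
Foxo1, miR-182: cagtgtgtttgctcTTGCCAAa
Foxo3, miR-182 at the first place: acagagaaaaccctTTGCCAAa
Foxo3, miR-182 at the second place: tcagcctctgcccgTTGCCAAa
Cited2, miR-182: tattctattttaatTTGCCAAt

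A seed match is a description of the letters and not a measured site. Of the genes with a miR-27 match, Pnrc1 was 0.82 higher in the stress group, Foxo3 0.34 higher and Foxo1 0.04 higher. Pnrc1 was selected on that difference, and the others were proposed with it known. The labels do not tie the miRNA libraries to the same tumours, and no relation between the 2 tables was tested.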

How the data were processed

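The authors deposited the mRNA values as log2 values per gene, already normalized; the transform and the base of the logarithm are not stated, and base 2 was assumed. Per the submitters' processing notes, bcl2fastq, kallisto 0.46.1 and mm10 were used, with no role given; how miRNA reads were counted is not stated there. The deposited miRNA counts are whole reads per mature miRNA and precursor row (2128 rows, 1978 mature miRNAs; where an miRNA had several rows, that with most reads was used).

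Of 35453 mRNA rows, 12658 listed at 0 in all libraries and 26 with a calendar date as name were left out. The 14098 genes whose mean over the 6 libraries reached 4 on the log2 scale were fitted across all genes with limma 3.58.1 (trend, robust) in R 4.3.3; miRNAs were fitted with edgeR 4.0.16 (TMM, filterByExpr, robust quasi-likelihood) and, as an alternative, DESeq2 1.42.0. Tests were two-sided without covariates, with Benjamini-Hochberg adjustment across every gene or miRNA fitted. An exact permutation test of 3 against 3 libraries cannot go below p = 0.1 and was not used. The genes and all lists were chosen with earlier results of these data known. The text names all 10 genes, every tested paralog and listed miRNA, and of each other list the called genes or the 3 with the smallest p; others are marked as named after their values were seen. A gene that this rule would name is not reported here. For likeness, the 5 genes with the highest r were named. The fits were tested on simulated data with known changes. Alternatives covered the scaling, the filters, the tool, a replicate block, a muscle covariate and leaving out each library.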

Additional observations from a re-analysis of the deposited data

How the results depend on the processing

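With 3 libraries a group and values of unknown depth in the mRNA table, differences near 0 cannot be ordered, and calls near the threshold depend on single libraries. The number of genes called higher was 3 and lower 2; it was 3 and 5 after quantile normalization, 4 and 7 with a minimum mean of 6, 1 and 1 in limma without trend and robust estimation, 0 and 0 with the replicate block, and 0 and 0 with the muscle covariate. Leaving out 1 library gave 0 to 4 higher and 0 to 2 lower. At an unadjusted p under 0.05 limma gave 1165 higher and 1290 lower.

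The Klhl24 call (limma) ended with median centring (0.49, adjusted p = 0.0564), no filter (0.49, 0.0626), no trend or robust estimation (0.49, 0.0716), the replicate block (0.49, 0.178) and the muscle covariate (0.47, 0.427), and the Pnrc1 call with the replicate block (0.82, 0.178) and the muscle covariate (0.73, 0.241). Without 1 library Klhl24 ran from 0.46 to 0.51 and Pnrc1 from 0.77 to 0.84. The cause was not tested. All stress libraries lay above all controls in 5 of the 10 genes, beside 12.1% of all genes. The count was 6 without control replicate 2 (with Irs2) or stress replicate 2 (with Foxo4). Without the latter Sesn1 separated downwards. Groups separate more easily with fewer libraries, and the share of all genes without single libraries was not computed. Nothing is therefore read from these changes in the count.

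Replicate numbers did not pair the libraries: same-numbered deviations correlated at -0.08, 0.08 and -0.02 in mRNA and -0.48, 0.31 and -0.13 in miRNA, and libraries did not all correlate best with their own number. The block is therefore given here only.

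Signs turned for genes near 0: Klhl3 with quantile normalization (0.0455) and the muscle covariate (0.0713), and Sesn2 with the covariate (-0.0054). Without 1 library the range crossed 0 for Foxo1 (-0.0433 to 0.0904), Sesn3 (-0.0673 to 0.233), Sesn2 (-0.0480 to 0.0495), Klhl3 (-0.0584 to 0.0423), Klhl25 (-0.0451 to 0.0328), Klhl5 (-0.0835 to 0.0213) and Klhl7 (-0.0130 to 0.0791). For single genes other than Pnrc1 and Klhl24, 513 recomputed values kept direction and side of the threshold, 1 passed it (Ccng2 without control replicate 2) and 18 changed sign.

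For miRNAs edgeR called 0 higher and 0 lower (40 and 70 at an unadjusted p under 0.05), DESeq2 11 and 33, and edgeR on all miRNAs with at least 1 read 18 and 51. Leaving out 1 library gave 0 to 18 higher and 0 to 64 lower, with calls in the edgeR fit without control replicate 1 (18 and 64) and in no other; RLE scaling, summed precursors and the block gave 0. Signs turned for miR-96-5p with DESeq2 (-9.3e-05) and miR-139-5p with the block (0.0024). Without 1 library the range crossed 0 for miR-96-5p (-0.12 to 0.18), miR-139-5p (-0.19 to 0.31), miR-132-3p (-0.156 to 0.0947), miR-212-3p (-0.22 to 0.11), miR-34a-5p (-0.23 to 0.29), miR-155-5p (-0.29 to 0.18), miR-135b-5p (-0.0609 to 1.57) and miR-21a-5p (-0.0740 to 0.152).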
